A study of Mus musculus with 9 samples.

Results

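The genes described here are 10 genes of hepatic bile acid synthesis, sensing and transport, taken by name out of the 27179 genes counted in mouse liver. They are the synthesis enzymes Cyp7a1, Cyp8b1, Cyp27a1 and Cyp7b1, the sensors and signalling components Nr1h4, Nr0b2, Fgfr4 and Klb, and the transporters Slc10a1 and Abcb11. All 10 passed the filter on low counts. The rule picked them by name, with earlier results of these data known. Liver RNA came from mice on a cholesterol-rich high-fat diet (HFD) for 12 weeks. The study describes females for its main 12-week experiment and also kept males, and does not state the sex of the sequenced livers. The control group, WT in the labels, was Apoe-/- (5 libraries), and the other, DKO, was Mif-2-/-Apoe-/- (4 libraries), so that both groups lack apolipoprotein E and differ in Mif-2, the gene of the cytokine MIF-2. Mif-2 was deleted in the whole animal, and the Apoe-/- line has a C57BL/6 background. Each library was made by Smart-seq2, a full-length method for small amounts of RNA, from the combined lysates of several frozen liver sections. The labels hold more WT libraries than the mice per group that the study gives for this experiment, so that WT libraries may share a mouse, and the p-values measure the spread between libraries.

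Bile acids are made from cholesterol in hepatocytes, and their synthesis is a main route by which the body disposes of cholesterol. CYP7A1 starts the classical pathway and limits its rate, whereas CYP27A1 and CYP7B1 carry the alternative pathway. Synthesis is held back by feedback: bile acids activate the nuclear receptor FXR, which induces the repressor SHP in the liver and the hormone FGF15 in the ileum, and FGF15 acts on hepatocytes through FGFR4 and its co-receptor beta-Klotho.

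Library totals ranged from 2318148 to 10764182 counts. Ddt, which encodes MIF-2, was measured at 658 ± 283 CPM (counts per 1000000 counts, SD, n = 5) in WT and 4.18 ± 1.45 CPM (SD, n = 4) in DKO libraries, as the labels state. CPM values here are normalized by the trimmed mean of M values (TMM). Their denominator holds the counts of the genes tested, so it leaves out the 10 most abundant genes and those under the filter. The library DKO3 stood apart, with correlations of 0.536 to 0.707 to the other libraries against 0.692 to 0.933 among the rest. Summed hepatocyte markers were at 80174 CPM in WT5, 93221 in DKO1, 72243 in DKO3 and 103434 in DKO4, and between 169157 and 235289 CPM in WT1, WT2, WT3, WT4 and DKO2. Alb and Apoa1 made up most of each sum, at 87146 and 82718 CPM in DKO2. Alb, Apoa1, Ttr and Trf lie outside the denominator of CPM, so the sums are not shares of all counts. Not every marker followed the sum, since Hnf4a was at 396 CPM in DKO2, 506 in DKO1 and 485 in DKO4. In bulk RNA, fewer cells of a type and less RNA per cell cannot be told apart.

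RefSeq promoter sequence on GRCm38.p6 matched 8 of the 10 genes, all but Cyp7a1 and Cyp7b1. The 250 bases before the start are shown for the FXR target genes Nr0b2 and Abcb11 and for Cyp8b1. The FXR motif searched on both strands was the inverted repeat of AGGTCA, 1 base of any kind and TGACCT, with up to 2 mismatches, which 0.959% of 32536 promoters held. Its outer letters overlap the half-site AGGTCA, found in 14% of promoters. Capitals mark the FXR repeat in Abcb11, the E-box CACGTG (6.04% of promoters) and the TATA box TATAAA (12.3%) in Nr0b2, and the TATA box in Cyp8b1. The windows lie at chr2:69342617-69342866 on the minus strand for Abcb11, chr4:133553126-133553375 on the plus strand for Nr0b2 and chr9:121916306-121916555 on the minus strand for Cyp8b1.
Abcb11: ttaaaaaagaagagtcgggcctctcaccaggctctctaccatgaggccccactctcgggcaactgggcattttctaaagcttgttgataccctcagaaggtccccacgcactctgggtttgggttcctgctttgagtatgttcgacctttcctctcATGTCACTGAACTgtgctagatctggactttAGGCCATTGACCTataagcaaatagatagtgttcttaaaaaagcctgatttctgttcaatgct
Nr0b2: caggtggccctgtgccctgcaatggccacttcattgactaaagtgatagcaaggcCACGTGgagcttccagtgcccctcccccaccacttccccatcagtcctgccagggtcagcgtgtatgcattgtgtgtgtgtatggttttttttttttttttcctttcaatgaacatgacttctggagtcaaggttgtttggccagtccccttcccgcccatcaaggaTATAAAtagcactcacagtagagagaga
Cyp8b1: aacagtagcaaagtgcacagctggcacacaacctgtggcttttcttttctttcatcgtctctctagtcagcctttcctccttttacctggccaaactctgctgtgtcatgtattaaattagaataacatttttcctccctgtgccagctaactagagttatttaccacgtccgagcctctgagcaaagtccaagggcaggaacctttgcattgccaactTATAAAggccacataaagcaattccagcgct
The Abcb11 promoter held 2 matches to the repeat, from -94 to -82 and from -63 to -51 relative to the start, and none of the other matched members held one. Neither the D-box TTATGTAA (0.811% of promoters) nor CAAGGTCA (1.33%), the binding motif of LRH-1, was found in the 8 matched genes. The promoters of Cyp7a1 and Cyp7b1 were not searched. A match of letters is a description of the window and says nothing about binding in these livers.

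Of the 10 genes, edgeR's quasi-likelihood test with Benjamini-Hochberg adjustment called 0, against 0.13% of the 16860 genes tested. Without adjustment, 6 had a p-value under 0.05, where 15.5% of all genes did: Cyp8b1 and Nr0b2 with the higher mean in WT (6.52% of all genes in that direction), and Cyp7a1, Klb, Nr1h4 and Slc10a1 with the higher mean in DKO livers (8.99%). DESeq2 called 3 of the 10, namely Cyp7a1, Klb and Cyp8b1, against 5.27% of the genes for which it gave an adjusted p. The genotypes did not overlap at 2 genes, Cyp8b1, higher in WT (2.24% of all genes tested), and Klb, higher in DKO (2.03%), against 4.26% in either direction. The median log2 fold change (WT over DKO) of the 10 genes was -0.46, beside -0.17 for all genes tested.

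**Figure D1:**
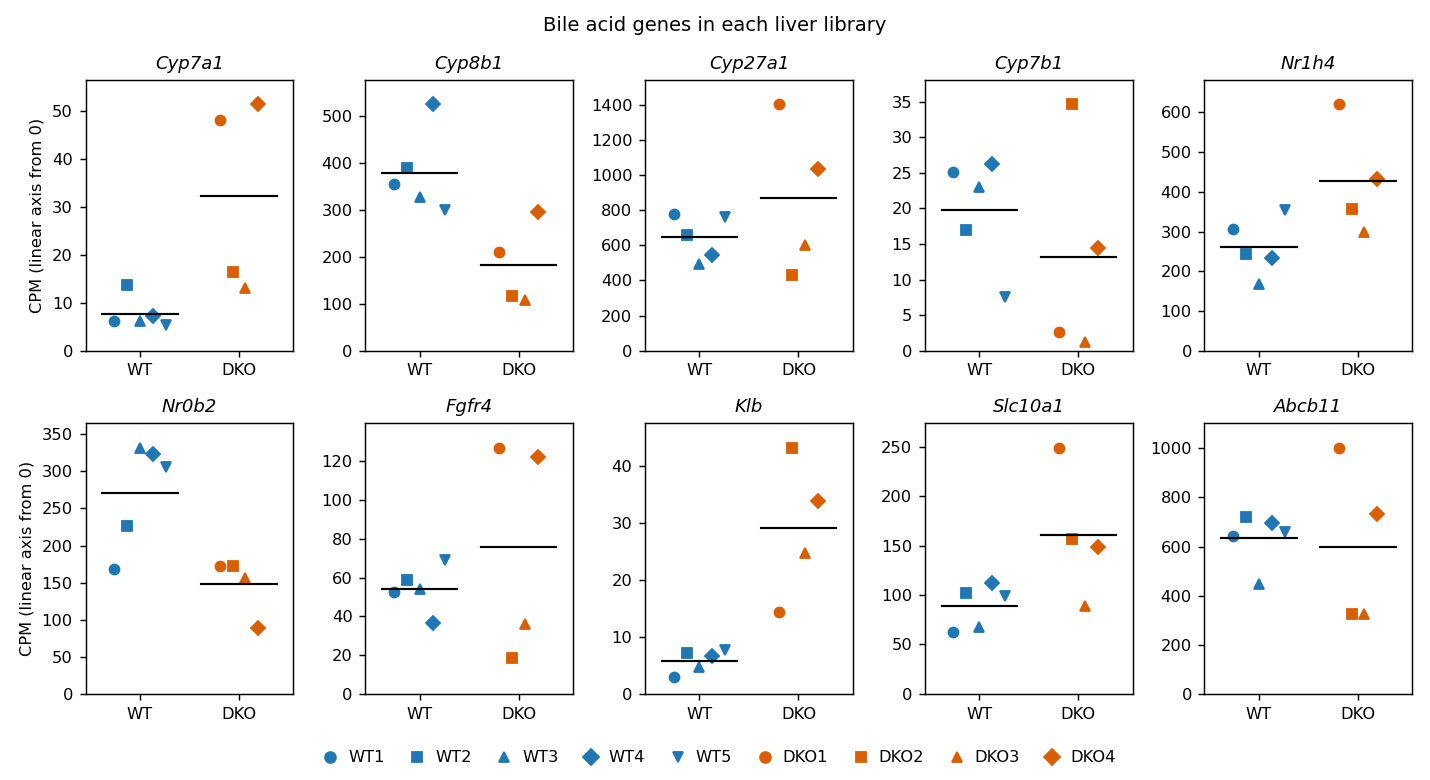
Normalized expression (CPM, linear axes from 0) of the 10 bile acid genes in each of 5 WT and 4 DKO libraries; each symbol is a library and each line the mean of a genotype. The genotypes do not overlap for Cyp8b1 and Klb, and DKO1 and DKO4 carry the highest values of Cyp7a1, Cyp27a1, Fgfr4 and Abcb11.

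Cyp7a1, the cholesterol 7alpha-hydroxylase gene (Entrez 13122, chr4:6265612-6275633, minus strand, GRCm38), had the higher mean in livers without MIF-2. Its level was 6.17, 13.8, 6.1, 7.26 and 5.42 CPM in WT1 to WT5 and 48.2, 16.5, 13.1 and 51.4 CPM in DKO1 to DKO4. Each DKO library except DKO3 lay above every WT library, and DKO3 lay just under WT2, the highest of the controls. The means of 7.75 ± 3.45 (SD, n = 5) and 32.3 ± 20.3 CPM (SD, n = 4) differed 4.17-fold. In the edgeR fit the log2 fold change was -2.05 (standard error 0.60, 95% interval -3.34 to -0.76), for which edgeR gave an adjusted p of 0.163 and DESeq2 one of 0.0093. A two-sided exact permutation test gave p = 0.0317. These levels rest on few reads, between 13 and 103 counts in WT and between 29 and 237 in DKO libraries. DESeq2 no longer called the gene without DKO1 (adjusted p = 0.0724) or without DKO4 (adjusted p = 0.0931).

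Cyp8b1 (Entrez 13124, chr9:121914356-121916305, minus strand) encodes the sterol 12alpha-hydroxylase that directs the classical pathway to cholic acid, and its only annotated exon spans the gene. It was at 354, 389, 328, 524 and 300 CPM in WT1 to WT5 and at 211, 116, 107 and 294 CPM in DKO1 to DKO4. Every WT library was above every DKO library, although WT5 and DKO4 were separated by only a few CPM. The mean was 2.09-fold higher in WT livers, 379 ± 87.6 (SD, n = 5) against 182 ± 88.4 CPM (SD, n = 4). The exact permutation test gave p = 0.0159, the smallest two-sided value 5 against 4 libraries allow here. The log2 fold change of 1.06 (standard error 0.35, 95% interval 0.30 to 1.81) reached an adjusted p of 0.184 in edgeR and of 0.0418 in DESeq2, and of the 9 DESeq2 fits that each left out 1 library, 2 called it, those without WT5 and without DKO4.

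The means of these genes of the classical pathway differed in opposite directions, and their ratio within a library does not depend on how libraries were scaled. The ratio of Cyp8b1 to Cyp7a1 counts was 57.3, 28.2, 53.8, 72.3 and 55.4 in WT1 to WT5 and 4.37, 7.03, 8.13 and 5.72 in DKO1 to DKO4. The lowest WT ratio was above the highest DKO ratio, and the geometric means differed 8.31-fold. Among all 33231628 pairs of genes averaging 10 CPM or more, 6.24% had ratios that did not overlap between the genotypes.

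Cyp27a1 (Entrez 104086, chr1:74713574-74737892, plus strand), whose mitochondrial enzyme oxidizes the sterol side chain and opens the alternative pathway, overlapped between the genotypes. It was at 779, 657, 494, 546 and 763 CPM in WT1 to WT5 and at 1402, 429, 603 and 1036 CPM in DKO1 to DKO4, so that the DKO libraries spanned both the lowest and the highest level. A log2 fold change of -0.42 (95% interval -1.17 to 0.33) had an adjusted p of 0.601 by edgeR. Against Cyp7a1 the ratio of Cyp27a1 counts lay between 47.6 and 141 in WT and between 20.1 and 46 in DKO libraries. It was 3.02-fold apart without overlap, beside 6.24% of all pairs of genes averaging 10 CPM or more.

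Cyp7b1 (Entrez 13123, chr3:18071950-18243338, minus strand), the oxysterol 7alpha-hydroxylase gene that follows CYP27A1, varied most among DKO livers. The DKO libraries were at 2.64, 34.6, 1.26 and 14.4 CPM, and the WT libraries at 25.1, 16.9, 23, 26.2 and 7.55 CPM. DKO2 held the highest value of all 9 libraries, while DKO1 and DKO3 lay below every control. Its log2 fold change of 0.60 (95% interval -1.17 to 2.37) was not called (adjusted p = 0.781 by edgeR). It was 1.78 without DKO2, 0.25 without DKO1 and 0.21 without DKO3.

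Nr1h4 (Entrez 20186, chr10:89454234-89533585, minus strand) encodes FXR, the bile acid receptor. It was at 307, 244, 169, 233 and 355 CPM in WT1 to WT5 and at 620, 357, 298 and 432 CPM in DKO1 to DKO4. DKO1, DKO2 and DKO4 were above every control, DKO2 by little, and DKO3 was within the WT range. The means of 261 ± 71.6 (SD, n = 5) and 427 ± 140 CPM (SD, n = 4) gave a log2 fold change of -0.71 (standard error 0.31, 95% interval -1.38 to -0.03), for which edgeR gave an adjusted p of 0.3 and DESeq2 one of 0.135. The two-sided exact permutation p was 0.0635.

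Nr0b2 (Entrez 23957, chr4:133553376-133556536, plus strand) encodes SHP, the repressor that FXR induces, and its mean was lower in DKO livers. The levels were 169, 226, 332, 324 and 306 CPM in WT1 to WT5 and 172, 173, 156 and 88.9 CPM in DKO1 to DKO4. Of the WT libraries WT1 alone lay among the DKO values, and DKO4 was the lowest of all. The mean was 1.84-fold higher in WT livers, 271 ± 71.2 (SD, n = 5) against 147 ± 39.7 CPM (SD, n = 4). On the log2 scale the fold change was 0.88 (standard error 0.32, 95% interval 0.19 to 1.57), with an adjusted p of 0.22 by edgeR, 0.0991 by DESeq2 and p = 0.0476 in the exact permutation test. The ratio of Nr0b2 to Nr1h4 counts was between 0.55 and 1.96 in WT and between 0.206 and 0.522 in DKO libraries. It was 2.99-fold apart with no overlap, although WT1 and DKO3 nearly touched. Among all pairs of genes averaging 10 CPM or more, 6.24% did not overlap.

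Fgfr4 (Entrez 14186, chr13:55152640-55168759, plus strand) encodes the receptor through which FGF15 holds back Cyp7a1. It was at 52.4, 58.5, 54, 36.7 and 69.1 CPM in WT1 to WT5, and at 127, 18.7, 35.8 and 122 CPM in DKO1 to DKO4. The controls were close to each other, whereas DKO1 and DKO4 lay above and DKO2 and DKO3 below all of them. This gave a log2 fold change of -0.49 (95% interval -1.54 to 0.57, adjusted p = 0.679 by edgeR).

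Klb (Entrez 83379, chr5:65348314-65384007, plus strand) encodes beta-Klotho, the co-receptor that FGFR4 needs for FGF15 and that other FGF receptors need for FGF21. It had the largest fold difference of the 10 genes. The WT libraries were at 2.88, 7.11, 4.69, 6.65 and 7.74 CPM (10 to 53 counts) and the DKO libraries at 14.4, 43.2, 24.7 and 33.8 CPM (71 to 148 counts). All DKO libraries were above all WT libraries, and the mean was 4.99-fold higher, 29 ± 12.3 (SD, n = 4) against 5.82 ± 2 CPM (SD, n = 5). The log2 fold change was -2.31 (standard error 0.59, 95% interval -3.56 to -1.05), for which edgeR gave an adjusted p of 0.137 and DESeq2 one of 8.6e-04. In the exact permutation test p was 0.0159. DESeq2 called Klb in all 9 fits that each left out 1 library, with adjusted p-values up to 0.0151, and edgeR in 0 of 9. The ratio of Klb to Fgfr4 counts overlapped, at 0.055 to 0.181 in WT and 0.114 to 2.3 in DKO libraries.

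Slc10a1 (Entrez 20493, chr12:80953183-80968705, minus strand) encodes NTCP, the sodium-dependent carrier that takes bile acids up from portal blood. It was at 62.6, 102, 68.1, 112 and 98.9 CPM in WT1 to WT5 and at 249, 157, 88.9 and 148 CPM in DKO1 to DKO4. DKO3 was again within the WT range, and the other DKO libraries were above it. The means of 88.8 ± 22.1 (SD, n = 5) and 161 ± 66 CPM (SD, n = 4) gave a log2 fold change of -0.85 (standard error 0.34, 95% interval -1.59 to -0.12), for which edgeR gave an adjusted p of 0.259 and DESeq2 one of 0.112, while the exact permutation p was 0.0635.

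Abcb11 (Entrez 27413, chr2:69238282-69342616, minus strand) encodes BSEP, the pump that exports bile salts into the canaliculus, and is the other FXR target whose promoter is shown. It was at 642, 722, 446, 696 and 660 CPM in WT1 to WT5 and at 1003, 324, 327 and 732 CPM in DKO1 to DKO4, so that the DKO libraries fell on both sides of the controls. The log2 fold change of 0.09 (95% interval -0.69 to 0.86, adjusted p = 0.94 by edgeR) changed sign without DKO2 and without DKO3. The antisense gene Gm13613 covers 136 bases of its exons (2.64%), and without strand the reads there cannot be assigned to either gene. The ratio of Abcb11 to Slc10a1 counts was between 6.18 and 10.3 in WT and between 2.06 and 4.96 in DKO libraries. It was 2.06-fold apart with no overlap. Of all pairs of genes averaging 10 CPM or more, 6.24% did not overlap.

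**Figure D2:**
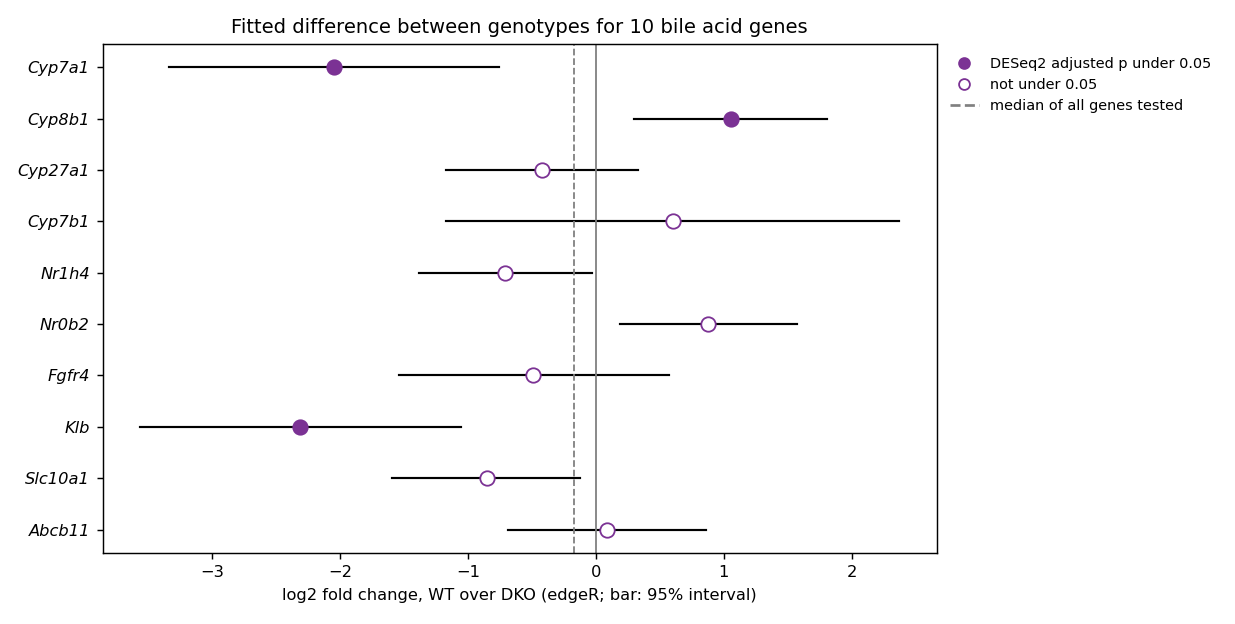
Log2 fold change (WT over DKO) of the 10 genes from the edgeR fit over 9 libraries, with 95% intervals as bars; filled points had a DESeq2 adjusted p under 0.05 and the dashed line is the median of all genes tested. The intervals of Cyp7a1, Klb, Nr1h4 and Slc10a1 lie below 0, those of Cyp8b1 and Nr0b2 above 0, and the other intervals include 0.

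**Figure D3:**
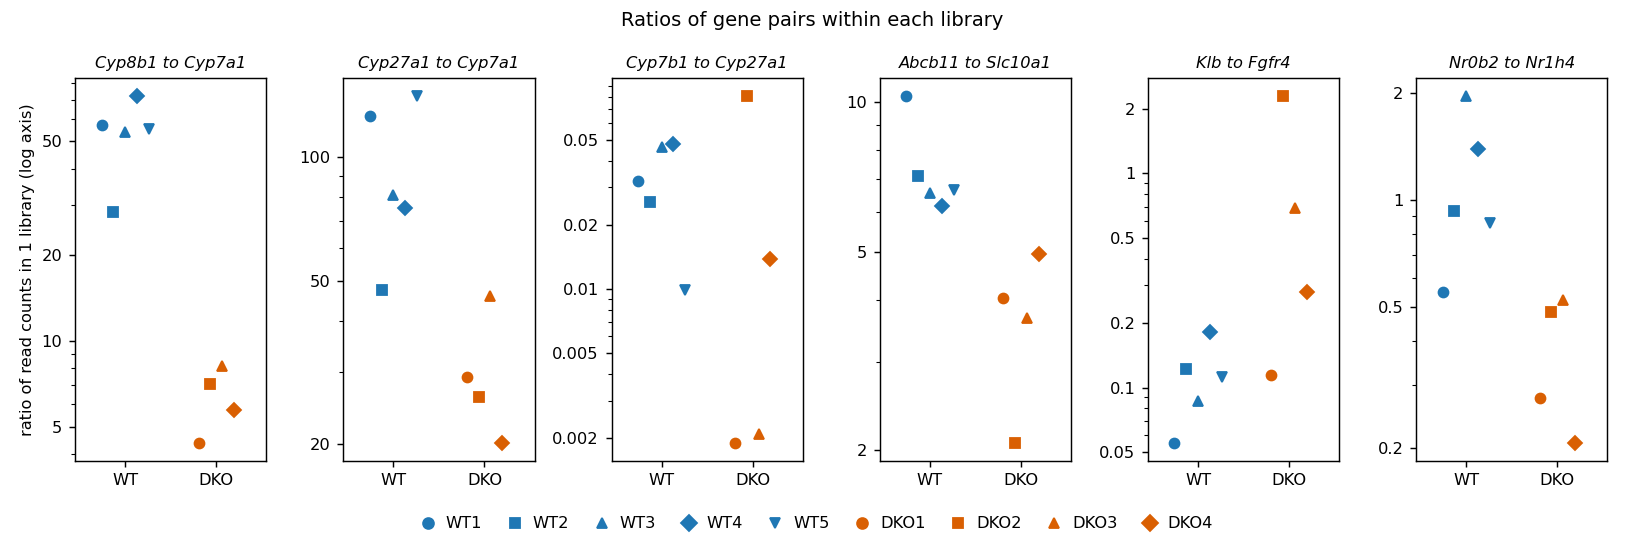
Ratio of the read counts of both genes of a pair within each library, on log axes that differ between panels; each symbol is a library. Cyp8b1 to Cyp7a1, Cyp27a1 to Cyp7a1, Abcb11 to Slc10a1 and Nr0b2 to Nr1h4 do not overlap between WT and DKO, while Cyp7b1 to Cyp27a1 and Klb to Fgfr4 do. Of all pairs of genes averaging 10 CPM or more, 6.24% do not overlap.

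Values without the library that stood apart differed for several members. Without DKO3, the genotypes did not overlap at 5 of the 10 genes, with Cyp7a1, Nr1h4 and Slc10a1, all higher in DKO, beside Klb and Cyp8b1. With the same library left out, 6.22% of all genes tested did not overlap, 2.9% with the higher values in WT and 3.32% in DKO. The log2 fold changes were then -2.31 for Cyp7a1, -2.38 for Klb, -1.05 for Slc10a1, -0.84 for Nr1h4, 0.91 for Nr0b2 and 0.87 for Cyp8b1, and edgeR still called 0 of the 10. WT5 and DKO2 differed from the other libraries of their genotype in summed hepatocyte markers, a sum made up mostly of Alb and Apoa1. In WT5, with a low sum, Cyp7a1 was at 5.42 and Klb at 7.74 CPM, and in DKO2, with a high sum, they were at 16.5 and 43.2 CPM. Both genes were higher in DKO2 than in any WT library, Cyp7a1 there on 29 counts. Fgfr4 (18.7 CPM) and Abcb11 (324 CPM) had their lowest values of all libraries in DKO2. The part of hepatocyte content in these values was not tested.

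The spread relative to the mean was larger among DKO than among WT libraries for all 10 genes. The SD itself was larger in WT for Nr0b2, at 71.2 against 39.7 CPM. The coefficient of variation in DKO was between 27% for Nr0b2 and 117% for Cyp7b1, and in WT between 17.2% for Abcb11 and 44.5% for Cyp7a1. Of the 8153 tested genes averaging 10 CPM or more, 56.9% varied more in DKO. Of the 10 genes, Nr0b2 differed least in this respect, with 26.2% in WT.

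The genes most like the members other than Nr0b2 were found by the correlation of log2(CPM + 0.5) over the 9 libraries with 8152 other genes averaging 10 CPM or more, which are described without a test because the points share the genotype difference and the libraries. For Cyp7a1 they were Slc38a3, Slc11a1 and Nfkb2 (r of 0.959 to 0.971), for Cyp8b1 Ociad1, Arl2 and 0610010K14Rik (0.967 to 0.99), for Cyp27a1 Sirt7, Preb and Hyal1 (0.967 to 0.976), and for Cyp7b1 Psma2, Rpl24 and Actb (0.972 to 0.978). Nr1h4 was followed most closely by Rfxap, Luc7l2 and Gsap (0.95 to 0.964), Fgfr4 by Hyal1, Zfp784 and Snx33 (0.944 to 0.95), and Klb by Trpt1, Hspb6 and Ramp3 (0.911 to 0.959). Abcb11 was closest to Mtarc1, Hmces and Sf3b3 (0.96 to 0.978) and Slc10a1 to Pou2f1, Fmo1 and Ahcy (0.9 to 0.908). The number of genes with r above 0.9 was 154 for Cyp7b1 and 2 for Slc10a1, the extremes among the 10.

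The order of levels can be compared between genes only per length. Per kilobase of annotated exon, Cyp27a1 was highest in WT livers (298 ± 58.4 CPM per kb, SD, n = 5), followed by Nr0b2 (240 ± 62.9) and Cyp8b1 (194 ± 44.9). Nr0b2 overlapped with both Cyp27a1 and Cyp8b1. Abcb11 (123 ± 21.2) came next without overlap with Cyp8b1, and it overlapped with Nr1h4 (114 ± 31.1). Slc10a1 (40.4 ± 10), Fgfr4 (15.3 ± 3.31) and Cyp7b1 (9.12 ± 3.56) followed, the last 2 of them overlapping. Cyp7a1 (1.86 ± 0.826) and Klb (1.28 ± 0.439) were lowest and overlapped. In DKO livers Nr1h4 (185 ± 60.8, SD, n = 4) stood second after Cyp27a1 (399 ± 202), and Cyp7b1 (6.11 ± 7.13) was last, behind Cyp7a1 (7.74 ± 4.87) and Klb (6.38 ± 2.71), but of the neighbours in this order Slc10a1 and Fgfr4 were the only pair without overlap.

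Of 20 other synthesis and conjugation enzymes, 14 had the higher mean in WT livers, the opposite direction to Cyp7a1. The edgeR test called 0 of them. An unadjusted p under 0.05 was found for 7 with the higher mean in WT and 3 with the higher mean in DKO. Of all genes tested, 6.52% and 8.99% had one in these directions. DESeq2 called 4 higher in WT and 1 higher in DKO livers, against 5.27% of the genes for which it gave an adjusted p. The median log2 fold change was 0.52, beside -0.17 for all genes tested. The 4 were genes of side-chain shortening and activation in peroxisomes and the endoplasmic reticulum: Scp2, whose product includes the sterol carrier thiolase (log2 fold change 1.73, adjusted p = 0.0197 by DESeq2), Hsd17b4 (1.27, 0.0359), Acox2, the branched-chain acyl-CoA oxidase (1.16, 0.0055), and Slc27a5, the bile acid-CoA ligase (1.14, 0.0396). Akr1c6 (1.42, adjusted p = 0.213 by edgeR) and Fdx1 (1.39, 0.277) had the largest fold changes of the list after Scp2 and were not called by DESeq2. Acox2 was at 134, 128, 99.5, 128 and 116 CPM in WT1 to WT5 and at 88.5, 39.2, 47.1 and 41.2 CPM in DKO1 to DKO4, with no overlap (2.24% of all genes tested in that direction). For Scp2, Hsd17b4 and Slc27a5 WT5 was the lowest control, and it overlapped with the DKO libraries as it did in summed hepatocyte markers, whose part in this result was not tested.

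Electron donors of the bile acid P450 enzymes were split. Fdxr, the ferredoxin reductase of mitochondrial P450 enzymes such as CYP27A1, was at 269, 317, 142, 179 and 277 CPM in WT1 to WT5 and at 703, 334, 622 and 744 CPM in DKO1 to DKO4 (log2 fold change -1.34, standard error 0.33, adjusted p = 0.136 in edgeR and 0.0026 in DESeq2). Its partner Fdx1, which passes the electrons on, had the higher mean in WT, at 110 against 42.4 CPM (log2 fold change 1.39, adjusted p = 0.277 in edgeR and 0.183 in DESeq2). Por, which serves microsomal P450 enzymes such as CYP7A1 and CYP8B1, was between 216 and 645 CPM in WT and between 693 and 1016 CPM in DKO libraries (log2 fold change -0.89, adjusted p = 0.218 in edgeR and 0.0507 in DESeq2). Neither Fdxr nor Por overlapped between the genotypes, as for 2.03% of all genes tested with the higher values in DKO. The same held for Cyp46a1, another enzyme of the list, at 7.04 to 73 CPM in WT and 74.1 to 120 CPM in DKO libraries. Its log2 fold change was -1.14 (adjusted p = 0.306 in edgeR and 0.223 in DESeq2).

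Of 20 other regulators of bile acid synthesis 18 could be tested, and edgeR called 0 of them. DESeq2 called 1 in each direction, against 5.27% of the genes for which it gave an adjusted p. The log2 fold change was below 0 for 13, and the median was -0.55, beside -0.17 for all genes tested. An unadjusted p under 0.05 was found for 1 and 5 in the WT and DKO direction, beside 6.52% and 8.99% of all genes tested. Fgf21, a liver hormone that signals through beta-Klotho, was at 64.6, 28.6, 96.7, 47.8 and 24 CPM in WT1 to WT5 and at 20.7, 14.8, 19.4 and 7.77 CPM in DKO1 to DKO4. Its order was the reverse of that of Klb, with every WT library above every DKO library (log2 fold change 1.73, standard error 0.52, adjusted p = 0.168 in edgeR and 0.0291 in DESeq2). Of all genes tested, 2.24% did not overlap in that direction. Nr1h2 did not overlap in the other direction (2.03%), at 132 to 194 CPM in WT and 203 to 364 CPM in DKO libraries. Its log2 fold change was -0.63 (adjusted p = 0.302 in edgeR and 0.103 in DESeq2). Nr1i3, which encodes the xenobiotic receptor CAR, was at 314, 388, 231, 382 and 578 CPM in WT1 to WT5 and at 1881, 354, 1162 and 1465 CPM in DKO1 to DKO4 (log2 fold change -1.68, adjusted p = 0.136 in edgeR and 0.008 in DESeq2). DKO2 lay among the controls. Prox1, a corepressor of the synthesis genes, had a log2 fold change of -0.99 (adjusted p = 0.476 by edgeR). Hnf4a, an activator of the synthesis genes, had a log2 fold change of 0.06 (adjusted p = 0.953 by edgeR), and Nr5a2, which encodes LRH-1, was at 8.32 CPM or below in each library.

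Of 19 other transporters, 18 were tested and edgeR called 0, with a median log2 fold change of -0.18, near that of all genes. In each direction 2 had an unadjusted p under 0.05, beside 6.52% (WT) and 8.99% (DKO) of all genes tested. DESeq2 called Ephx1, an epoxide hydrolase also described as a bile acid carrier, higher in WT (log2 fold change 1.39, adjusted p = 0.0403). WT5 was again within the DKO range for Ephx1. Of all genes with an adjusted p, DESeq2 called 5.27%. Of the organic anion carriers, Slco1a4 had the largest fold change among genes of the list averaging 10 CPM or more, -1.61 (adjusted p = 0.242 by edgeR), and Abcg2, an efflux pump, 1.24 (adjusted p = 0.349). Abcb4, which moves phosphatidylcholine into bile, had a log2 fold change of 0.72 (adjusted p = 0.422 by edgeR) and Abcc2, the canalicular conjugate pump, -1.07 (adjusted p = 0.287). Of 11 tested FXR target genes, which include Nr0b2, Abcb11, Fgfr4 and Slc27a5, edgeR called 0. Again 2 of them in each direction had an unadjusted p under 0.05, beside the same shares of all genes tested. DESeq2 called 1 of them, Slc27a5, against 5.27% of the genes for which it gave an adjusted p, and the median of the list was 0.43.

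**Figure D4:**
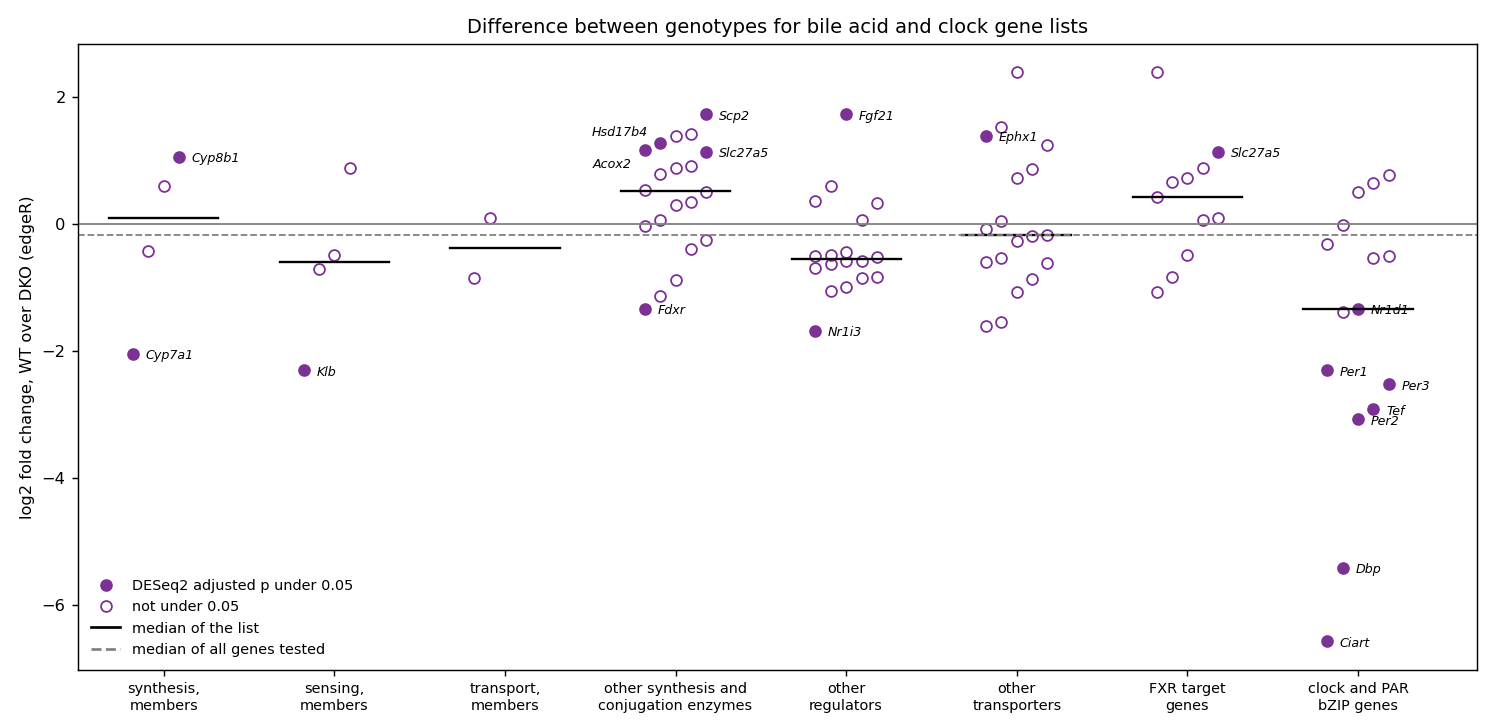
Log2 fold change (WT over DKO, edgeR) of the tested genes in the 3 groups of bile acid genes described here, in 4 lists of related genes and in the clock list; each point is a gene, filled and named where the DESeq2 adjusted p was under 0.05. The black line of each list is its median, at 0.52 for the other enzymes and -1.34 for the clock and PAR bZIP genes, beside the dashed line of all genes at -0.17.

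Clock genes differed between the same libraries. Cyp7a1 is transcribed with a daily rhythm, and DBP, a PAR bZIP factor under clock control, is one of its known activators. Dbp was at 6.45, 8.98, 12.7, 0.806 and 12.4 CPM in WT1 to WT5 and at 425, 179, 432 and 359 CPM in DKO1 to DKO4 (log2 fold change -5.42, standard error 0.59, adjusted p = 8.9e-04 by edgeR). Of 15 tested clock and PAR bZIP genes edgeR called 3, Ciart (log2 fold change -6.58), Dbp and Tef (-2.92), against 0.13% of all genes tested. DESeq2 called 7, adding Per1, Per2, Per3 and Nr1d1, against 5.27% of the genes for which it gave an adjusted p. The same 7 did not overlap, each higher in DKO (2.03% of all genes tested in that direction). The 16 genes of the list in the table summed to 420 to 514 CPM in WT and 1617 to 2371 CPM in DKO libraries, and 0 of them were at 0 in all libraries. The hour at which the livers were taken is not given in the sources used here, and the part of these genes in the values of Cyp7a1 and the other members was not tested.

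Summed markers of liver zones overlapped between the genotypes, the periportal sum only through WT4, the one control above the lowest DKO library. Two-sided exact permutation tests gave p = 0.0317 for the periportal sum, higher in DKO, and p = 0.0635 for the pericentral sum. Cyp7a1 and Cyp8b1 are hepatocyte genes with zonal expression, and the 8 pericentral markers summed to 1678 to 4037 CPM in WT and 1140 to 2396 CPM in DKO libraries, while the 8 periportal markers summed to 2044 to 4255 and 3968 to 6869 CPM. Of all genes with an adjusted p, DESeq2 called 5.27%. Of the periportal markers, it called Sds and Pck1, whose genes also respond to fasting (log2 fold changes of -1.43 and -1.18). Without them the sum was 1383 to 2600 CPM in WT and 1731 to 2529 CPM in DKO libraries. Since these markers were left out because they differed, this overlap cannot show whether the zones differ. The periportal Cyp2f2 had the higher mean in WT (log2 fold change 0.75, adjusted p = 0.295 by edgeR), and of the pericentral markers DESeq2 called Oat, also higher in WT (1.44, adjusted p = 0.0149). Summed markers of other cell types overlapped as well, with cholangiocytes at 118 to 378 and 100 to 392 CPM, Kupffer cells at 1015 to 2024 and 1107 to 1566 CPM, stellate cells at 250 to 527 and 253 to 570 CPM, endothelial cells at 219 to 363 and 152 to 484 CPM, lymphocytes at 15.1 to 40.4 and 23.2 to 41.1 CPM, and erythroid cells at 99.5 to 320 and 59.6 to 218 CPM. The part of zonal composition in the differences of the bile acid genes was not tested.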

How the data were processed

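RNA-seq libraries of liver sections (5 WT, 4 DKO) were assigned to groups by their genotype labels. Per the labels, the authors used FastQC, cutadapt, HISAT2 and the build mm10, and deposited whole-number read counts per Entrez gene, without normalization. Of the 27179 genes, 25275 matched a RefSeq symbol. A second header line was left out. Loci and exon lengths are from GENCODE M21 (GRCm38). The members and gene lists were chosen with earlier results of these data known.

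The filter required 1 count or more in 3 or more libraries of either genotype, the 10 most abundant genes were excluded, and 16860 genes were tested with edgeR 4.0.16 (TMM, quasi-likelihood test, Benjamini-Hochberg threshold of 0.05) under R 4.3.3. Fold changes are WT over DKO. DESeq2 1.42.0 was run on all genes with a count and gave 14030 of them an adjusted p. Exact permutation tests used the 126 arrangements of the libraries on log2(CPM + 0.5), with the two-sided p as double the smaller tail (scipy 1.17.1). Intervals use the t distribution with edgeR's degrees of freedom. Alternatives were RLE and TMMwsp factors, other filters, DESeq2, a replicate block and leaving out each library. DESeq2 on the filtered genes or without each library, and the counts of members without each library, were chosen after seeing the data. The edgeR script was tested on simulated counts. Named genes are the 10 members, Ddt, the calls of either tool and the 3 largest log2 fold changes (mean of 10 CPM or more) in each pathway list, and the 3 genes most correlated with each member, of which those for Nr0b2 are not reported here. Por, Cyp46a1, Nr1h2, Hnf4a, Nr5a2, Abcb4, Oat, Cyp2f2, Sds and Pck1 were added after their values were seen. Depth limits Cyp7a1, Klb and Cyp7b1 most, and PCR duplicates were counted as reads.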

Additional observations from a re-analysis of the deposited data

Results flagged for a closer look

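Among the 10 genes in each genotype, 1 value stood far from the other libraries of its group. Cyp7a1 was at 13.8 CPM in WT2, with the other WT libraries between 5.42 and 7.26 CPM, so that the gap to its nearest neighbour took up a share of 0.781 of the range of the group. This was 1 of 20 groups of values examined, and chance gives such a value in about 1 group in 20. WT2 is also the control that overlapped with DKO3. Without WT2, all DKO libraries were above all WT libraries, and the log2 fold change of Cyp7a1 was -2.28 by edgeR and -2.35 by DESeq2.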

How the results depend on the processing

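Of 260 values of the 10 members under other settings, 231 kept their direction and their side of the threshold, 25 passed the threshold in the same direction, all by DESeq2, and 4 changed sign. The 4 belong to Abcb11, at -0.02 without DKO2 and -0.12 without DKO3 by edgeR, and -0.09 and -0.08 by DESeq2. DESeq2 called 739 genes and 3 members, with log2 fold changes of -2.06 for Cyp7a1, 1.06 for Cyp8b1 and -2.34 for Klb, and on the filtered genes 690 genes and 3 members (-2.05, 1.06 and -2.34). Leaving out each library, edgeR called 9 to 262 genes and 0 members, and DESeq2 367 to 1804 genes and 1 to 4 members; Cyp7a1 then ranged from -2.35 to -1.74, Cyp8b1 from 0.87 to 1.39, Klb from -2.58 to -1.98, Nr1h4 from -0.86 to -0.47 and Abcb11 from -0.12 to 0.45. The number of members without overlap was 2 or 3, and 5 without DKO3, beside 5.26% to 11.1% of all genes over the same settings (6.22% without DKO3). The log2 ratio of Cyp7b1 to Cyp27a1 (1.80) ranged from 1.09 without DKO1 to 2.90 without DKO2, and that of Klb to Fgfr4 (-2.20) was -2.88 without DKO1 and -1.44 without DKO2. The cause of these shifts was not tested. TMMwsp moved the median of all genes from -0.17 to 0.00, and DESeq2 without 1 library moved it between -0.67 (without WT5) and 0.01 (without DKO3); with TMMwsp the difference in mean log2 CPM of Fgfr4 changed sign, to 0.08. Relative to the median of -0.17, the differences were -1.88 for Cyp7a1, 1.23 for Cyp8b1, -2.14 for Klb and 1.05 for Nr0b2.

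With a replicate block, edgeR called 560 genes and 0 members, with the adjusted p of Cyp8b1 at 0.0534. The labels do not say that WT and DKO libraries of the same number form pairs. Deviations from the genotype means of log2 CPM correlated at 0.138, -0.0156, 0.0125 and -0.0262 between same-numbered libraries. Between libraries of different number these correlations were -0.177 to 0.192. Such values cannot settle whether the libraries are paired. No member was called by edgeR under any alternative run here.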
